A study of Mus musculus with 6 samples.

Results

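The 41 genes described here encode assembly factors of the mitochondrial respiratory complexes, the proteins that build these complexes without being part of the finished enzymes. They were taken from a fixed list of gene symbols, grouped by the complex that each factor builds, with 13 genes for complex I, 3 for complex II, 6 for complex III, 16 for complex IV and 3 for complex V. All 41 symbols were found among the 26199 genes of the expression table, and all 41 passed the filter on low values. The RNA came from whole embryonic mouse hearts at embryonic day 12, in which the gene for the mitochondrial ribosomal protein Mrps5 had or had not been deleted in cardiomyocytes. Control hearts were Mrps5 fl/fl littermates without Cre. Mutant hearts were Mrps5 fl/fl; cTNT-Cre by the sample labels, by which both groups carried 2 floxed alleles and differed in the Cre transgene, which the cardiac troponin T2 promoter drives in cardiomyocytes. A figure legend of the study writes the mutant genotype as Mrps5 fl/+, with a single floxed allele, and the labels are followed here. Other cells of the mutant heart keep Mrps5 and are part of the measured tissue. Each group had 3 replicates, each by the study's methods a pool of hearts, so the p-values measure the spread between pools.

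Each respiratory complex is put together in the mitochondrial inner membrane from many subunits, and complexes I, III, IV and V combine subunits made on mitochondrial ribosomes with others imported from the cytosol. Assembly factors hold incomplete modules in a soluble or membrane-bound state and insert heme, copper, flavin and iron-sulfur groups. They are encoded in the nucleus, and inherited defects in many of them cause mitochondrial disease that often affects the heart. Because Mrps5 belongs to the small subunit of the mitochondrial ribosome, the comparison asks how the messages of these nuclear-encoded builders stood when a part of the ribosome that makes some of the subunits of complexes I, III, IV and V was deleted.

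A short stretch of promoter sequence is shown for the 4 factors whose promoter held the binding motif of NRF1, a transcription factor known for activating nuclear genes of the respiratory chain, since 3 of these 4 were among the factors with the lowest p in the comparison below. Promoters ran from 250 bases before to 50 bases after the transcription start in RefSeq on GRCm38.p6, and both strands were searched for GCGCA, then any base, then GCGC. The windows of 30 bases are written 5′ to 3′ on the strand of the gene, and capitals mark the motif.
Ndufaf4, chr4:24897960-24897989, plus strand: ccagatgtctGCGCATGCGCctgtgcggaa
Ndufaf5, chr2:140170652-140170681, plus strand: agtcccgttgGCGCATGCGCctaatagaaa
Sdhaf4, chr1:24005613-24005642, minus strand: ccaccttggtGCGCGTGCGCagacgctgtg
Uqcc2, chr17:27133920-27133949, minus strand: gcgccttagtGCGCACGCGCcctctgcggt
The first base of the motif lay at position -113 from the start in Ndufaf4, -48 in Uqcc2, 9 in Sdhaf4 and 17 in Ndufaf5. A promoter was matched for 35 factors (37 promoters), and the motif stood in 4 of these 37 (10.8%) and in 4.60% of all 32851 promoters. A match is a description of these letters and not a measured binding site. The motif is shown because of the p-values of its carriers, so those values are no support for it. Motifs of ETS factors (16.2% of factor promoters, 3.89% of all) and of YY1 (13.5%, 2.75%) exceeded their share over all promoters by more.

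Values are FPKM, fragments scaled by transcript length and library size, summed over the transcripts of a gene. Read numbers cannot be had from FPKM and the depth is unknown, and a relative estimate from the spacing of low values ranged from 1 to 1.61 with control replicate 1 as 1. Summed FPKM per library ranged from 454692 to 515952. Mrps5 (ENSMUSG00000027374), the deleted gene, stood at 9.65, 11.4 and 10.4 FPKM in the controls (replicates 1, 2 and 3) and at 5.28, 7.41 and 10.4 in the mutants. The library labelled mutant replicate 3 thus had it at the control level. Its log2 fold change was -0.44 (SE 0.19, adjusted p = 0.339 from limma), and it was -0.66 without that library and -0.23 without mutant replicate 1. Whether that library has the labelled genotype cannot be told from this level, and every mutant mean, fold change and count of non-overlapping values below includes it as labelled unless said otherwise. Markers of the heart muscle cell (10 genes, among them Tnnt2 and Myh6) were clearly present, with summed levels of 8604 to 10178 FPKM in controls and 7012 to 8441 in mutants. Erythroid markers made up 12.0% to 13.3% of the summed FPKM in controls, and 23.5%, 10.8% and 22.0% in mutant replicates 1, 2 and 3. The controls were not uniform in every marker list. Hepatoblast markers (Afp, Alb, Apoa1 and Ttr) summed to 128, 281 and 21.5 FPKM in control replicates 1, 2 and 3, and to 85.5, 173 and 131 in the mutants.

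No assembly factor passed the adjusted threshold between mutant and control hearts. The largest differences among the 41 were lower values of Atpaf1 (complex V), which serves the ATP synthase, and of Sdhaf4 (complex II). The largest differences in the other direction were in Cox18 and Cox10 (complex IV). Log2(FPKM + 1) values were compared with limma over 13262 genes, with Benjamini-Hochberg adjustment over all of them. An adjusted p under 0.05 was reached by 0 of the 41 factors and by 0.0829% of all genes tested, and the smallest adjusted p of a factor was 0.149. At an unadjusted p under 0.05 there were 5 factors, 4 lower (Atpaf1, Sdhaf4, Uqcc2 and Ndufaf5) and 1 higher (Cox18). These are 12.2% of the factors, beside 15.0% of all genes tested. Values of the 3 mutant libraries lay below all 3 control libraries for 9 factors (22.0%), where 13.0% of all genes did so, and above them for 3 factors (7.32%), where 7.74% of all genes did so.

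**Figure D1:**
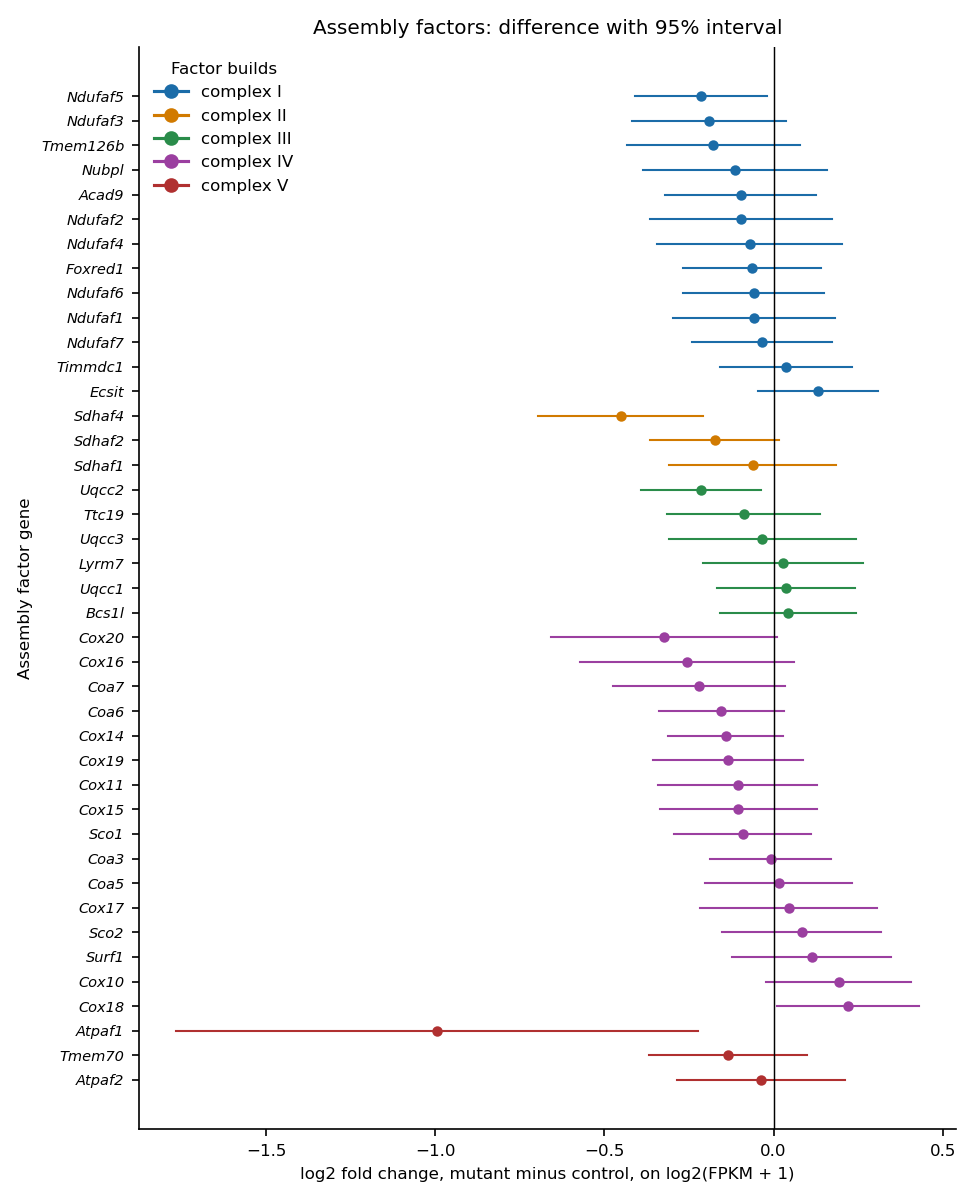
Log2 fold change of each of the 41 assembly factors, mutant minus control on log2(FPKM + 1) (horizontal axis), with the 95% interval from limma as a line, coloured by the complex that the factor builds. Atpaf1 stands apart at -0.99 with the widest interval (-1.77 to -0.22), followed by Sdhaf4 at -0.45, and all others lie between -0.32 and 0.22.

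By sign, 30 of the 41 factors were lower in mutant hearts and 11 higher. The median log2 fold change was -0.09, beside -0.02 over all genes tested, of which 55.0% were below 0. By complex the median was -0.07 for complex I (11 of 13 below 0), -0.17 for complex II (3 of 3), -0.003 for complex III (3 of 6), -0.10 for complex IV (10 of 16) and -0.13 for complex V (3 of 3). The factors varied little between replicates, with a median coefficient of variation of 6.68% in controls and 7.26% in mutants, beside 8.74% and 11.3% over all genes. Factors below their control mean numbered 35 in mutant replicate 1, 25 in mutant replicate 2 and 27 in the library labelled mutant replicate 3, and 28, 20 and 13 in control replicates 1, 2 and 3. The count in control replicate 1 was thus above those in mutant replicates 2 and 3. Of all 13262 genes, 7778, 5962 and 7879 were below their control mean in the mutant libraries and 6598, 6984 and 6545 in the controls. The median over all factors was -0.05 without mutant replicate 1 and also -0.05 without control replicate 3. In complex I it was -0.12 without control replicate 1 and -0.15 without mutant replicate 2, and in complex IV -0.04 without control replicate 2 or without mutant replicate 1. In complex V it was -0.07 without mutant replicate 1, -0.08 without control replicate 3 and -0.21 without control replicate 1. The complex III median, close to 0, took either sign, from -0.03 without control replicate 2 to 0.04 without control replicate 3. In whole hearts, fewer cells of a type and less RNA per cell cannot be told apart. All 10 cardiomyocyte markers were also below 0 (median -0.27). Of these markers 7 (70.0%) were lower without overlap, beside 13.0% of all genes. Single libraries moved this list too. By library, 4, 10 and 4 of the markers lay under their control mean among the controls, and 10, 9 and 7 among the mutants. Control replicate 2 thus had as many as any mutant library. The part of these markers in the values of the factors was not tested. Of 11 erythroid markers 10 were above 0 (median 0.66), with 0 that did not overlap. The median of the factors was -0.05 with the erythroid level as a covariate, -0.06 with median-ratio scaling of the libraries and -0.12 with a scaling that left out erythroid and mitochondrial DNA genes.

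**Figure D2:**
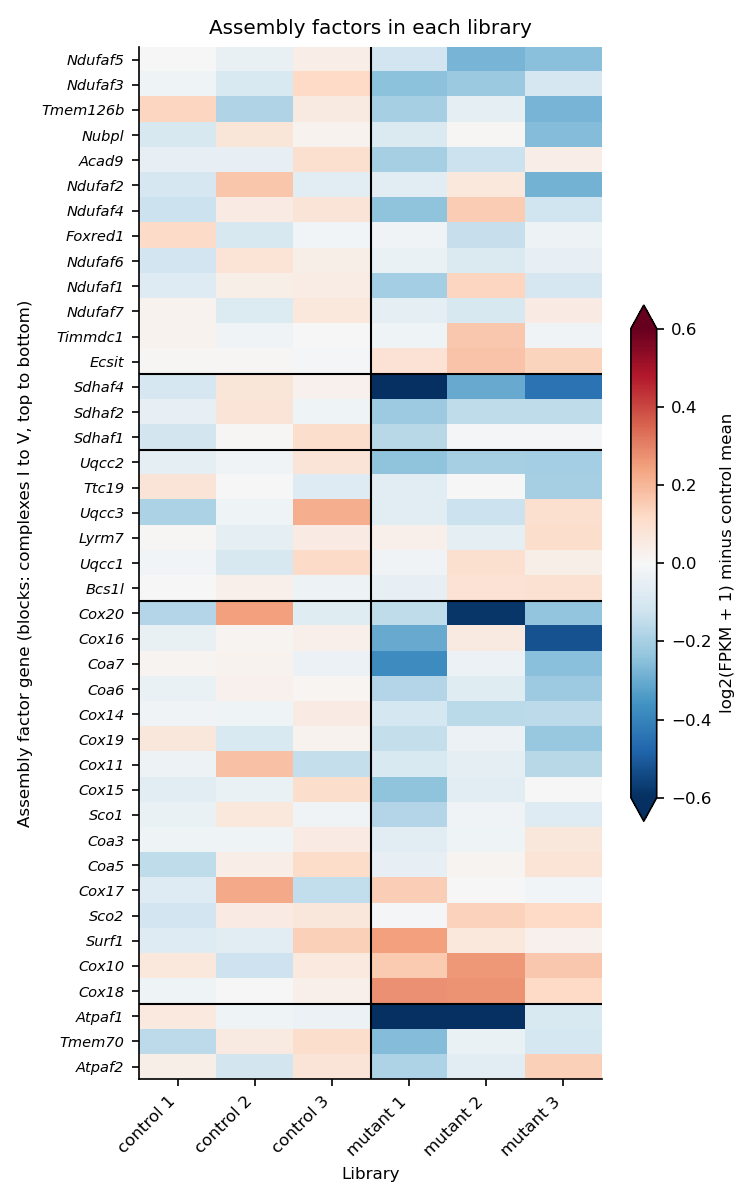
Deviation of each factor from its control mean, on log2(FPKM + 1), in each of the 6 libraries (columns); rows are factors in blocks for complexes I to V from top to bottom, and the colour scale saturates at 0.6 in either direction. Sdhaf4 is blue in all 3 mutant libraries. Atpaf1 is dark blue in mutant replicates 1 and 2 (-1.24 and -1.65) and pale in the library labelled mutant replicate 3 (-0.09).

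In complex V, Atpaf1, the chaperone of the catalytic beta subunit of ATP synthase, had the largest difference of all factors, and 1 mutant library stood apart from the other mutants. Controls were at 7.68, 7.19 and 7.13 FPKM, and the mutants (replicates 1, 2 and 3) at 2.52, 1.66 and 6.81. Mutant replicates 1 and 2 lay far below the controls, and the library labelled mutant replicate 3, in which Mrps5 was at the control level, lay just below the lowest control. Group means were 7.33 ± 0.304 in controls and 3.66 ± 2.76 in mutants (SD, n = 3 each). The log2 fold change was -0.99 (SE 0.34, 95% interval -1.77 to -0.22), with an unadjusted p of 0.0176 and an adjusted p of 0.238 from limma. Without the library labelled mutant replicate 3 it was -1.45 (adjusted p = 0.00195 from limma). In that comparison 261 of 13167 genes (1.98%) had an adjusted p under 0.05, Atpaf1 was the only factor among them, and its fall ranked 8 among the 134 that fell. Mutant replicate 2 alone, the mutant library without a high erythroid share, stood at -1.65 from the controls, a single value with no spread of its own. Without mutant replicate 2 it was -0.67 (adjusted p = 0.319), and the unadjusted p of Atpaf1 was above 0.05 in 2 of the 6 comparisons that left out a library, those without mutant replicate 1 or 2. One transcript (ENSMUST00000176047) carried 83.1% to 96.4% of the Atpaf1 signal in every library.

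The other factors of complex V overlapped between the groups. Tmem70, which helps to form the ring of c subunits and was the most abundant of the 3, was at 18.5, 21.5 and 22.4 FPKM in controls and 17.1, 20.2 and 19.2 in mutants (log2 fold change -0.13, SE 0.10, adjusted p = 0.577 from limma). The Tmem70 value was -0.07 without mutant replicate 1, -0.08 without control replicate 3 and -0.21 without control replicate 1. Atpaf2, the partner of Atpaf1 that binds the alpha subunit, was at 13.0, 11.7 and 13.4 FPKM in controls and 11.0, 12.1 and 14.1 in mutants, a log2 fold change of -0.04 (95% interval -0.28 to 0.21). Relative to its control mean, Atpaf2 was at -0.19 in mutant replicate 1, below every control, and at -0.07 in mutant replicate 2, on the log2 scale.

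**Figure D3:**
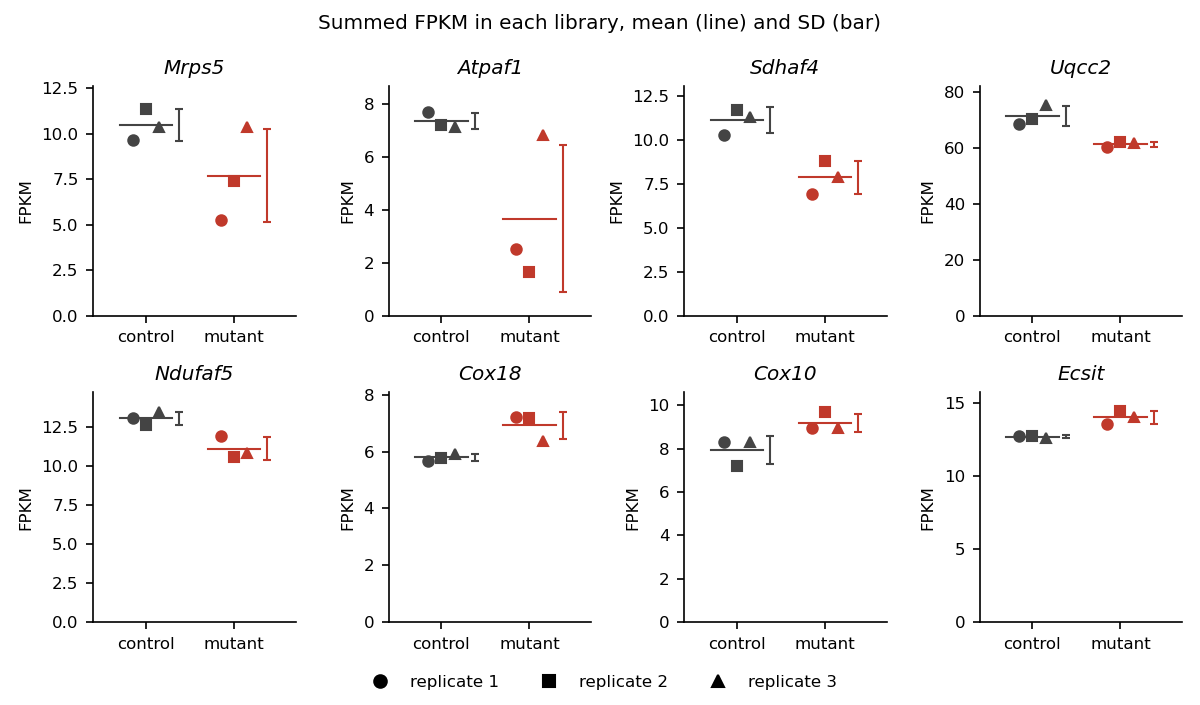
FPKM (vertical axis, from 0) of Mrps5 and 7 assembly factors in each control and mutant library; marker shapes give the replicate number, lines the group mean and bars the SD (n = 3). Mrps5 and Atpaf1 show mutant replicate 3 at or near the control level, Sdhaf4, Uqcc2 and Ndufaf5 show all 3 mutants below the controls, and Cox18, Cox10 and Ecsit show all 3 above.

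In complex II all 3 factors were below 0. Sdhaf4, which binds the flavin-carrying catalytic subunit Sdha and guards it until it joins its partner, was at 10.3, 11.8 and 11.3 FPKM in controls and 6.94, 8.82 and 7.91 in mutants. Every mutant library was below every control, the library labelled mutant replicate 3 included. The log2 fold change was -0.45 (SE 0.11, 95% interval -0.70 to -0.21), with an unadjusted p of 0.00254 and an adjusted p of 0.149 from limma. Over 18 other settings it ranged from -0.53 to -0.30 and the adjusted p from 0.0866 to 0.397. Sdhaf2, which attaches the flavin to Sdha, was at 10.8, 11.9 and 11.0 FPKM in controls and 9.51, 10.02 and 10.04 in mutants, without overlap (log2 fold change -0.17, SE 0.08, adjusted p = 0.372 from limma). Sdhaf1, which serves the iron-sulfur subunit Sdhb, was low in every library, at 3.53 to 4.47 FPKM, and differed by -0.06 with overlapping groups.

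Complex III factors act on cytochrome b, the only subunit of that complex made in mitochondria, or on the Rieske iron-sulfur protein. Uqcc2, which binds newly made cytochrome b together with Uqcc1, was the second most abundant of all 41 factors. It was at 68.6, 70.3 and 75.4 FPKM in controls and 60.3, 62.0 and 61.8 in mutants, so all mutants were below all controls and close together. The log2 fold change was -0.21 (SE 0.08, 95% interval -0.39 to -0.04), with an unadjusted p of 0.0228 and an adjusted p of 0.263 from limma, and the former was above 0.05 in 3 of the 6 comparisons that left out a library. Its binding partner Uqcc1 was at 13.8 to 16.1 FPKM in controls and 14.5 to 15.9 in mutants (log2 fold change 0.04, 95% interval -0.17 to 0.24). Uqcc3, a further cytochrome b factor, differed by -0.03. Of the Rieske factors, Bcs1l, the ATPase that moves the protein into the complex, differed by 0.04, its chaperone Lyrm7 by 0.03, and Ttc19, which clears Rieske fragments, by -0.09. The groups of these 5 overlapped.

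In complex I the 5 factors of the module that builds the membrane arm (Ndufaf1, Ecsit, Acad9, Tmem126b and Timmdc1) did not share a direction. Ecsit was at 12.8, 12.8 and 12.6 FPKM in controls and 13.6, 14.5 and 14.1 in mutants, without overlap (log2 fold change 0.13, SE 0.08, adjusted p = 0.458 from limma). With the most abundant Ecsit transcript alone it was 0.36 and the groups overlapped. Timmdc1, the most abundant of these 5, was at 17.2, 16.7 and 16.9 FPKM in controls and 16.6, 19.0 and 16.7 in mutants, where mutant replicate 2 alone stood above the controls, and the log2 fold change of 0.04 became -0.02 without it. Ndufaf1, Acad9 and Tmem126b differed by -0.06, -0.10 and -0.18 with overlapping groups.

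The 5 factors of the early peripheral arm had values below 0, where 55.0% of all genes did. Of these 5 factors, 2 were lower without overlap between the groups, where 13.0% of all genes were. Ndufaf5, which hydroxylates a residue of the subunit Ndufs7, was at 13.1, 12.6 and 13.5 FPKM in controls and 12.0, 10.6 and 10.8 in mutants. Its groups did not overlap, and the log2 fold change was -0.21 (SE 0.09, 95% interval -0.41 to -0.02), with an unadjusted p of 0.0347 and an adjusted p of 0.298 from limma, and the former was above 0.05 in 5 of the 6 comparisons that left out a library. Ndufaf3 was at 6.42, 6.08 and 7.20 FPKM in controls and 5.36, 5.46 and 6.04 in mutants, also without overlap (log2 fold change -0.19, SE 0.10, adjusted p = 0.407 from limma). With its most abundant transcript alone the groups overlapped and the value was -0.04. Ndufaf4, which works in a pair with Ndufaf3, differed by only -0.07, with mutant replicate 2 above all controls at 15.0 FPKM. Ndufaf6 and the methyltransferase Ndufaf7 differed by -0.06 and -0.03. The late factor Ndufaf2, with the highest control mean of complex I, was at 16.1, 19.6 and 16.5 FPKM in controls and 16.5, 18.1 and 14.1 in mutants, a log2 fold change of -0.10. The oxidoreductase Foxred1 differed by -0.06 and the iron-sulfur carrier Nubpl, the least abundant of all factors at 2.81 ± 0.221 FPKM in controls (SD, n = 3), by -0.11. The groups of these 3 overlapped.

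Complex IV has the most factors, and they stood on both sides of 0, with 10 lower and 6 higher. Cox10, which makes the first step from heme B to heme A, was at 8.32, 7.17 and 8.28 FPKM in controls and 8.93, 9.68 and 8.97 in mutants, without overlap (log2 fold change 0.19, SE 0.09, adjusted p = 0.378 from limma). Cox15, which completes heme A, differed in the other direction by -0.10 with overlapping groups. Cox18, which moves the tail of the mitochondrially encoded Cox2 protein across the inner membrane, was at 5.67, 5.78 and 5.93 FPKM in controls and 7.22, 7.17 and 6.37 in mutants. All mutants were above all controls, with the library labelled mutant replicate 3 nearest to them. The log2 fold change of Cox18 was 0.22 (SE 0.09, 95% interval 0.01 to 0.43), with an unadjusted p of 0.0413 and an adjusted p of 0.313 from limma. The unadjusted p was no longer under 0.05 in 9 of 18 other settings, among them 5 of the 6 that left out a single library. Cox20 and Cox16, which also handle Cox2, had negative values. Cox20 was at 31.1, 42.1 and 33.5 FPKM in controls and 31.6, 23.2 and 29.7 in mutants, a log2 fold change of -0.32 (SE 0.15, 95% interval -0.66 to 0.01, adjusted p = 0.343 from limma), and mutant replicate 1 lay inside the control range. This value was -0.20 without mutant replicate 2 and also -0.20 without control replicate 2. Cox16 differed by -0.26 (SE 0.14), with mutant replicate 2 above all controls at 31.3 FPKM and the other mutants at 24.3 and 20.7. Without mutant replicate 2 it was -0.41 (unadjusted p = 0.00376, adjusted p = 0.133 from limma), without the library labelled mutant replicate 3 it was -0.12, and mutant replicate 2 alone stood at 0.05 from the controls.

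The factors of copper delivery to complex IV stood on both sides of 0. Cox17, the copper chaperone of the intermembrane space and the most abundant factor of all, was at 81.1, 101 and 77.2 FPKM in controls and 95.2, 85.8 and 84.8 in mutants. The controls spanned the mutants, and the log2 fold change of 0.04 (SE 0.11, 95% interval -0.22 to 0.31) changed sign in 3 of 18 other settings. Cox11, Cox19 and Sco1 differed by -0.11, -0.13 and -0.09 and Sco2 by 0.08, all with overlapping groups. Coa6, which helps to form the copper site of Cox2, was at 17.5, 18.3 and 18.1 FPKM in controls and 15.8, 17.1 and 15.3 in mutants, without overlap (log2 fold change -0.16, SE 0.08, adjusted p = 0.407 from limma).

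Among the remaining complex IV factors, Cox14 and Coa3 bind newly made Cox1 together. Cox14 was at 27.6, 27.4 and 29.0 FPKM in controls and 25.9, 24.9 and 25.0 in mutants, without overlap (log2 fold change -0.14, SE 0.07, adjusted p = 0.414 from limma), while Coa3 differed by -0.01 (95% interval -0.19 to 0.17). Coa7 was at 5.75, 5.77 and 5.53 FPKM in controls and 4.15, 5.52 and 4.62 in mutants, with mutant replicate 2 just under the lowest control (log2 fold change -0.22, SE 0.11, adjusted p = 0.395 from limma). This was -0.14 without mutant replicate 1 and -0.09 with the erythroid covariate. Surf1, a factor of the heme-containing Cox1 module, differed by 0.11 and Coa5 by 0.02, and the groups overlapped for both.

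The counts at an unadjusted p under 0.05 moved with single libraries and with scaling. They were 2 factors without control replicate 3 (Atpaf1 and Sdhaf4), where 11.6% of all genes were called. Without control replicate 2 there were 3 (Atpaf1, Sdhaf4 and Tmem126b), beside 12.5% of all genes, and without mutant replicate 1 also 3 (Cox20, Ndufaf5 and Sdhaf4), beside 11.4%. Sdhaf4 was the factor that kept an unadjusted p under 0.05 in each of the 6 comparisons that left out a library. Without the filter on low values there were 8 factors, beside 11.9% of 22161 genes. The direction of calls depended on the scaling of the libraries. As deposited, 1 factor was higher and 4 lower, and 740 genes in all were higher and 1251 lower, 37.2% higher. With median-ratio scaling, 3 factors were higher (Cox10, Cox18 and Ecsit) and 2 lower (Atpaf1 and Sdhaf4), and over all genes 1000 were higher and 1006 lower (15.1% called, 49.9% of them higher). With a scaling that left out erythroid genes and genes of mitochondrial DNA, 0 factors were higher and 8 lower (Atpaf1, Coa6, Cox14, Cox20, Ndufaf5, Sdhaf2, Sdhaf4 and Uqcc2), and 15.5% of all genes were called, 26.4% of them higher. Without mutant replicates 1 and 3, the libraries of high erythroid share, 4 factors had an unadjusted p under 0.05 (12.3% of all genes did) and the median over all factors was -0.04. The scalings moved the median over all genes to 0.01 and -0.05. Of the 12 factors without overlap, Ndufaf3 and Atpaf1 overlapped with median-ratio scaling, and Ndufaf3, Atpaf1 and Ecsit with the most abundant transcript row alone.

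In level, the factors were minor messages beside the subunits they assemble. FPKM are scaled by transcript length, so levels can be set side by side across genes. The median control level was 11.4 FPKM for the 41 factors and 112 FPKM for 79 nuclear-encoded subunits of the same complexes, a 9.80-fold gap. The gap was 6.21-fold for complex I, 9.16-fold for complex II, 13.0-fold for complex III, 18.6-fold for complex IV and 16.6-fold for complex V. Among the factors 4 had a control mean under 5 FPKM (Sco2, Sdhaf1, Lyrm7 and Nubpl), 29 lay from 5 to 20, 6 from 20 to 50 (Cox20, Coa3, Cox16, Cox14, Coa5 and Tmem70), and 2 above 50. These 2 were Cox17 at 86.3 ± 12.6 and Uqcc2 at 71.4 ± 3.51 FPKM in controls (SD, n = 3), and their control libraries did not overlap each other or the next factor in order, Cox20 at 35.5 ± 5.76. Further down most neighbours in the order overlapped, and from Foxred1 at rank 12 to Ndufaf3 at rank 34 no factor lay wholly above the next. Cox20 overlapped Coa3 in the control libraries, and Coa3 overlapped Cox16.

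Values of the client subunits were set beside those of the factors, and no difference between the lists was tested. The 13 mitochondrial DNA subunits had a median log2 fold change of -0.46, with 11 below 0 and 8 of the 13 (61.5%) lower without overlap. Taken singly, mutant replicate 3 had the lowest median deviation (-0.60), although its Mrps5 matched the controls. Mutant replicate 1 stood at -0.43. Mutant replicate 2, with an erythroid share of 10.8%, stood at -0.24, and at 0.04 for the complex I subunits alone. Any link of these medians to the erythroid share was not tested. The 79 nuclear-encoded subunits had a median of -0.10, close to that of the factors, with 61 below 0. Of these 79, 24 (30.4%) were lower without overlap and 0 higher, beside 13.0% and 7.74% of all genes. Single controls weighed on this list. Control replicate 1 had 67 subunits under their control mean, more than any mutant library (61, 62 and 52). Control replicate 2 had 58. Control replicate 3 had only 10 and stood high, at a median deviation of 0.10. By complex the subunit medians were -0.08, -0.10, -0.18, -0.11 and -0.13 for complexes I to V, beside -0.07, -0.17, -0.003, -0.10 and -0.13 for the factors. The 4 nuclear-encoded subunits with the smallest p (Cox7a1, Atp5k, Cox8b and Uqcrh) each stood below 0 without overlap. Among them, Uqcrh of complex III was at 320, 332 and 349 FPKM in controls and 228, 223 and 270 in mutants (log2 fold change -0.48, adjusted p = 0.139 from limma).

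**Figure D4:**
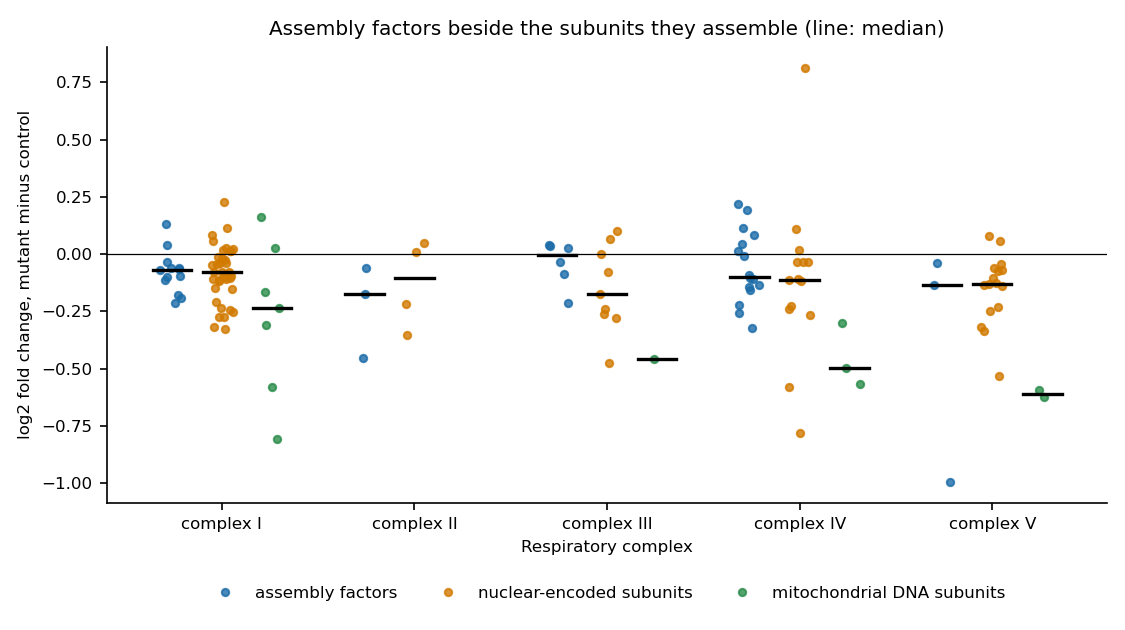
Log2 fold change, mutant minus control on log2(FPKM + 1) (vertical axis), of assembly factors, nuclear-encoded subunits and mitochondrial DNA subunits for complexes I to V; each point is a gene and each black line a median. Medians of factors and nuclear-encoded subunits lie between -0.18 and 0, and those of the mitochondrial DNA subunits, which complex II lacks, lie below them, down to -0.61 in complex V.

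A wider list of 50 further genes that act in assembly, membrane insertion or iron-sulfur cluster supply gave 46 genes in the table that were tested. Of these, 24 were above and 22 below 0 (median 0.02), and 4 were higher and 4 lower at an unadjusted p under 0.05 (17.4%, beside 15.0% of all genes), with 0 at an adjusted p under 0.05. The smallest p belonged to Hspa9, a mitochondrial chaperone of protein import and iron-sulfur cluster making, at 112, 127 and 126 FPKM in controls and 205, 226 and 145 in mutants. Its groups did not overlap (log2 fold change 0.63, SE 0.16, adjusted p = 0.162 from limma), and the library labelled mutant replicate 3 was the nearest to the controls. Lrpprc, which stabilises mitochondrial messenger RNAs, was at 28.4, 32.5 and 28.9 FPKM in controls and 34.7, 39.4 and 36.7 in mutants (log2 fold change 0.29, adjusted p = 0.207 from limma). The inner membrane protease Afg3l2 was at 28.4, 29.0 and 28.7 FPKM in controls and 37.4, 31.1 and 37.9 in mutants (log2 fold change 0.29, adjusted p = 0.226). Cmc1, which binds newly made Cox1 with Cox14 and Coa3, was at 7.09, 7.76 and 8.37 FPKM in controls and 6.25, 5.66 and 6.40 in mutants (log2 fold change -0.30, adjusted p = 0.229). Within this list, 9 of 12 iron-sulfur cluster genes were above 0 (median 0.14). Their median deviation from the control mean was 0.20, -0.07 and 0.25 in mutant replicates 1, 2 and 3, whose erythroid shares were 23.5%, 10.8% and 22.0%, and 7 of the 12 were below it in mutant replicate 2. The part of erythroid cells in these values was not tested.

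The 4 factors whose promoters held the NRF1 motif shown above had log2 fold changes of -0.45 (Sdhaf4), -0.21 (Uqcc2), -0.21 (Ndufaf5) and -0.07 (Ndufaf4), with a median of -0.21, and 3 of the 4 were lower without overlap, where 13.0% of all genes were. Ndufaf4 overlapped between the groups and changed sign in 3 of 18 other settings. Among the 31 factors whose promoter lacked it the median was -0.06, and 5 were lower without overlap. The motif was picked with these values known, so this contrast followed from the choice and is no support. The groups are small, and no test was made. Uqcc2 also held the motif of YY1. Motifs of ETS factors (CCGGAAGT, 16.2% of factor promoters and 3.89% of all) and of YY1 (AAGATGGC, 13.5% and 2.75%) were also found, and the C/EBP-ATF composite motif (TGATGNAA, in 3.97% of all promoters) was found in 0 of the 37.

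Within a few factors the transcript rows differed between libraries by more than their sums. The 41 factors had 84 transcript rows, all labelled protein coding, with 19 factors on a single row, and 9 rows were at 0 in every library. In Bcs1l, whose summed level was flat at 7.33 to 7.68 FPKM in controls and 7.20 to 8.04 in mutants, the transcript ENSMUST00000027358 made up 0.635%, 12.3% and 12.0% of the sum in controls and 24.5%, 51.7% and 18.1% in mutants, without overlap. The most abundant Bcs1l row alone gave a log2 fold change of -0.40 (adjusted p = 0.460 from limma), where the sum gave 0.04. In Ndufaf3 the minor transcript ENSMUST00000194381 made up 11.1%, 14.5% and 9.57% in controls and was listed at 0 in all 3 mutants, and the most abundant row alone gave -0.04 where the sum gave -0.19. The lower sum of Ndufaf3 thus lay mostly in its minor row. Rows of Foxred1 exchanged places within each group, with ENSMUST00000043805 at 2.52%, 81.8% and 3.49% in controls and 76.9%, 6.43% and 7.34% in mutants. In Ecsit the transcript ENSMUST00000098937 ranged from 30.7% to 94.5% in controls and from 36.1% to 81.8% in mutants. Shares of single transcripts are estimates by the authors' software from reads that the transcripts of a gene largely share, and how the estimates came about was not tested.

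**Figure D5:**
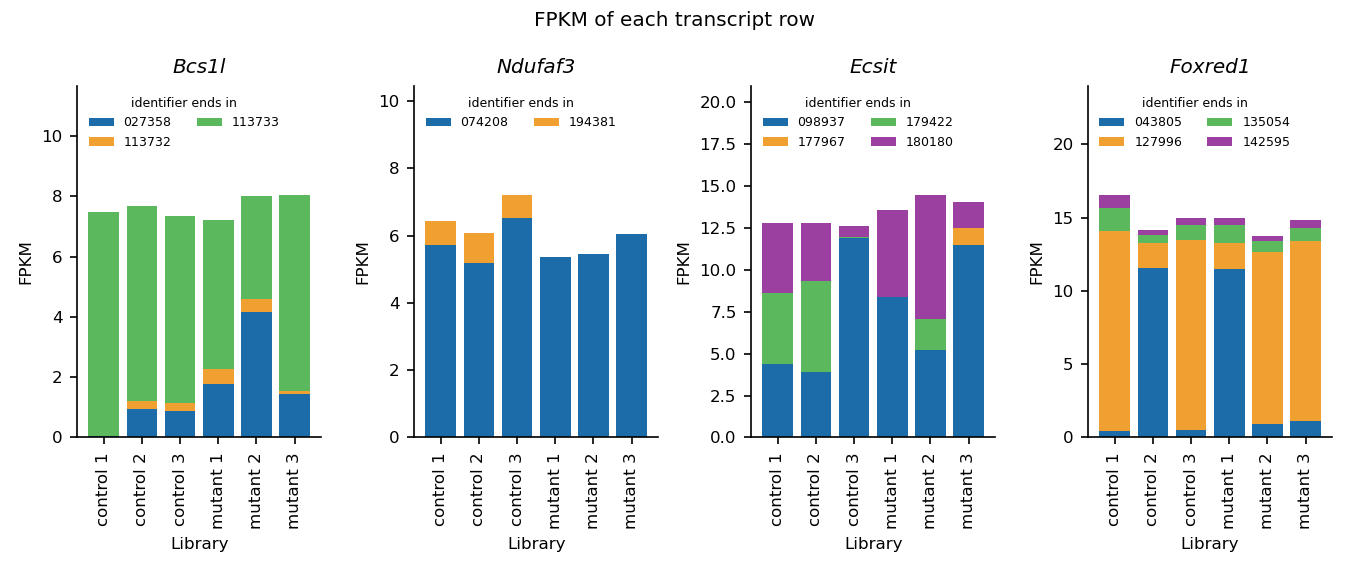
FPKM of each transcript row (vertical axis, stacked to the gene's sum) of Bcs1l, Ndufaf3, Ecsit and Foxred1 in each library. The rows shift between libraries by more than the sums: the first Bcs1l row (blue) is larger in all mutants, the small second Ndufaf3 row (orange) is listed at 0 in all mutants, and the leading Foxred1 row differs between libraries of the same group.

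In the GENCODE M21 annotation 18 of the 41 factors share exon bases with another gene, 4 of them on the same strand (Acad9, Cox16, Cox17 and Sco2) and 15 on the opposite strand. The latter include Ndufaf3 (with Impdh2), Sdhaf4 (with the unconfirmed transcript Gm26524), Sdhaf2 (with Cpsf7), Coa6 (with Tarbp1), Cox20 (with Hnrnpu), Cox10 and Ecsit (each with an antisense RNA). Whether strand was used when fragments were assigned is not given in the sources used here, so reads of these pairs may not be fully separated. Atpaf1, Uqcc2, Ndufaf5, Cox18, Cox14 and Coa7 share no exon bases with another annotated gene.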

How the data were processed

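RNA from pools of embryonic mouse hearts (3 control and 3 mutant replicates, embryonic day 12) was depleted of ribosomal RNA and made into directional libraries, per the labels. The study's methods for RNA sequencing, which do not name the embryonic hearts, describe poly-T selection of messenger RNA instead. The authors deposited FPKM per transcript in 1 table of 60776 rows. The submitters' processing notes name HISAT2, StringTie 1.3.1, Cuffdiff 2.1.1, Bowtie2 2.2.8 and mm9, with no role for each, and the annotation release is not given in the sources used here. No read counts were used, so the depth is unknown and no counting interval was given.

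FPKM were summed by gene identifier, and log2(FPKM + 1) was compared between groups with limma 3.58.1 in R 4.3.3 (empirical Bayes with trend, Benjamini-Hochberg adjustment) over 13262 genes with at least 1 FPKM in at least 3 libraries. Changes of genes with low FPKM are understated on this scale. The script was tested on simulated data. Values in every library are given for Mrps5 and for factors with an unadjusted p under 0.05, without overlap between the groups, or with the highest mean over all libraries or the largest change in their complex. Values of other factors singled out in the text were chosen after they were seen. Of the other lists, up to 4 genes with the smallest p could be named. The members, lists, motifs and tests were chosen with earlier results of these data known. Promoter sequences are from RefSeq (GRCm38.p6), and no coordinates of mm9 were mixed with them. No promoter was matched for Cox18, Ndufaf6, Cox17, Tmem70, Acad9 and Coa6.

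Alternatives covered the pseudocount (0.1 and 0.5), the filter, 2 scalings, the replicate number as a block, the most abundant or only the protein-coding rows, an erythroid covariate, no variance trend and leaving out each library. Leaving out mutant replicates 1 and 3 together was added after seeing the data.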

Additional observations from a re-analysis of the deposited data

How the results depend on the processing

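Of 734 values of the 41 factors under other settings, 34 changed sign, in 17 factors. Of the results for the 16 factors given in every library by rule, 282 kept their direction and side of the threshold, 4 changed sign and 2 passed the threshold. The 2 were Atpaf1 without the library labelled mutant replicate 3 (-1.45) and without mutant replicates 1 and 3 (-1.65, where 1 mutant library is left and its spread is assumed from the controls, so this is no replicated test). Cox17 turned to -0.0110 with the erythroid covariate, and ranged from -0.0302 (without control replicate 3) to 0.159 when each library was left out, with -0.00725 without mutant replicate 1. Timmdc1 ranged from -0.0230 (without mutant replicate 2) to 0.0698. The number of factors with an adjusted p under 0.05 was 0 to 1 when each library was left out and 1 without mutant replicates 1 and 3. At an unadjusted p it was 8 without the low-value filter, 8 with the scaling that left out erythroid and mitochondrial DNA genes, and 2 to 5 when each library was left out.

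Over all genes, the count at an adjusted p under 0.05 moved from 11 to 5 without the filter, 4 with the most abundant row, 6 without the variance trend, 116 without mutant replicates 1 and 3, and 3 to 261 when each library was left out (123 without mutant replicate 2). At an unadjusted p it was 1314 for genes with a mean of at least 5 FPKM, and 1177 to 2173 when each library was left out.

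The replicate numbers did not pair the libraries by the rule used, since the deviations of same-numbered libraries correlated at 0.215, 0.108 and 0.0892, although every library correlated best with its own number. With the replicate block 4 genes had an adjusted p under 0.05 and 2217 an unadjusted p under 0.05, among them 4 factors (Cox18 was lost).

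The median over all factors was -0.126 to -0.0495 when each library was left out and -0.0351 without mutant replicates 1 and 3. For complex I it was -0.151 to -0.0492 when each library was left out, and for complex II -0.313 for genes with a mean of at least 5 FPKM, where Sdhaf1 was left out. For complex III it was -0.0529 with the most abundant row, and 0.03 with median-ratio scaling. For complex IV it was -0.0354 with the most abundant row, -0.0465 with the erythroid covariate, -0.0241 without mutant replicates 1 and 3, and -0.124 to -0.0408 when each library was left out. For complex V it was -0.283 with the most abundant row. Except where fewer libraries or genes were used, the cause was not tested. With 3 pools a group and unknown depth, differences of the size seen in most factors were not resolved.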

Other observations

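The motif of YY1 stood in the promoters of 5 factors (Atpaf2, Cox10, Cox20, Tmem126b and Uqcc2) and that of ETS factors in those of 6 (Bcs1l, Cox10, Cox14, Cox15, Cox16 and Timmdc1). Cox10, one of the factors with higher values in mutant hearts, held both. The median log2 fold change was -0.18 for the 5 factors with the YY1 motif and -0.08 for the 30 without it. For the ETS motif it was -0.03 for the 6 with it and -0.09 for the 29 without it. These groups of factors share a member and were not tested.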
